A study of Mus musculus with 28 samples.

Results

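Prkcd, Tac1, Tac2, Dlk1, Calcrl and Cartpt are 6 genes that mark neurons of the central amygdala. They were taken by symbol, through the GENCODE release M21 annotation, from the 49477 genes listed for both batches of mice. All 6 averaged 10 counts or more per mouse, the minimum that left 16266 genes for testing. The amygdala RNA came from adult female C57BL6/J mice that were housed singly, each mouse giving 1 library. The 10 Water mice had no alcohol, the 9 Acute mice were offered 20% ethanol once, at the end of the experiment, and the 9 Chronic mice were offered 20% ethanol every other day over a month. Of these, 4 Water, 4 Acute and 3 Chronic mice formed a first batch, and the second was of 6, 5 and 6 mice. The micropunches, taken from both hemispheres of a mouse, were meant to hold the central and the basolateral nuclei, so that each library mixed the marked neurons with their neighbours.

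The central amygdala is made up largely of GABAergic neurons and receives input from the basolateral nuclei, whose principal neurons are glutamatergic and of pallial origin. Its neurons are sorted by the peptides and signalling proteins they make, and the peptides act on G protein-coupled receptors at nearby or distant cells. The marker genes are not exclusive to it: Tac1 is also expressed by striatal projection neurons, Prkcd in the thalamus and Calcrl by endothelial cells.

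Tac1 and Tac2 encode tachykinin precursors, from which substance P and neurokinin A (Tac1) and neurokinin B (Tac2) are cut. Cartpt encodes the precursor of the CART peptides. Calcrl encodes the receptor that binds calcitonin gene-related peptide together with Ramp1, and adrenomedullin together with Ramp2 or Ramp3. Prkcd encodes protein kinase C delta, an intracellular kinase. Dlk1 encodes a membrane protein related to the ligands of Notch. In the GRCm38 build Prkcd lies at chr14:30595354-30626210 on the minus strand, Tac1 at chr6:7554879-7565834 on the plus strand and Tac2 at chr10:127724478-127731768 on the plus strand. Dlk1 lies at chr12:109452823-109463336 on the plus strand, Calcrl at chr2:84330626-84425411 on the minus strand and Cartpt at chr13:99898489-99901091 on the minus strand. All 6 are annotated as protein-coding, and no other annotated gene overlapped any of them on either strand.

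The coding sequences of the tachykinin peptides are shown because Tac1 and Tac2 share the ending that defines the family, and read counts of each gene pool all its products. The capitals mark the 5 codons of the tachykinin signature (a phenylalanine, a variable residue, then glycine, leucine and methionine), and the lower case bases after them encode the glycine and the basic pair at which the peptide is released. The sequences are from the GENCODE M21 transcripts.
Tac1, substance P: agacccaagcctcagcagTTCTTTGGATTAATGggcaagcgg
Tac1, neurokinin A: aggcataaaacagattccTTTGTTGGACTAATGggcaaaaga
Tac2, neurokinin B: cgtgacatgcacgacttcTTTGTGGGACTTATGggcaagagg
The substance P stretch lies within 1 exon, at chr6:7556732-7556773. The neurokinin A stretch is split over 2 exons between chr6:7557743-7559139 and is absent from 1 of the annotated coding transcripts. The neurokinin B stretch is split over 2 exons between chr10:127728476-127729154. The counts are sums over transcripts, so transcripts with and without neurokinin A were not told apart.

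The promoters of the members were searched for motifs of factors that act in neurons, on RefSeq windows of 300 bases in the build GRCm38.p6, and 7 windows belonged to the 6 members. The full cyclic AMP response element (TGACGTCA, both strands) was found in 1 of the 7, that of Cartpt, and in 1.79% of all 32851 windows. The E-box CACGTG (both strands) was found in 2 of the 7, those of Prkcd and Tac1, and in 7.15% of all windows. The AP-1 motif TGANTCA (both strands) was found in 0 of the 7 and in 7.81% of all. These matches describe the letters of the windows, and no binding was measured. The motif is in capitals.
Cartpt, cyclic AMP response element, minus strand: gcgggcatTGACGTCAaacggcag
Prkcd, E-box, minus strand: ccccagctCACGTGggcggagc
Tac1, E-box, plus strand: gagagtgtCACGTGgctctaca
The Cartpt stretch lies at chr13:99900780-99900803, that of Prkcd at chr14:30626301-30626322 and that of Tac1 at chr6:7554992-7555013. The first base of the motif is at -112, -106 and -61 from the start site of the RefSeq window. The Cartpt and Tac1 stretches lie inside the GENCODE gene spans given above, whose starts differ from these RefSeq start sites.

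Total counts ranged from 20004380 to 22569562 per mouse, so that depth differed little between mice. Levels of single genes are given as CPM, the count scaled to a common library size with TMM factors from edgeR. Markers of tissue next to the punch differed more. Summed over 5 choroid plexus genes, the level ranged from 24.8 to 3983 CPM in Water mice, from 14.7 to 3536 in Acute mice and from 12.4 to 4270 in Chronic mice. Summed over 8 striatum genes, it ranged from 411 to 1626 CPM in Water mice (median 1045), from 537 to 1270 in Acute mice (median 988) and from 486 to 1071 in Chronic mice (median 695). Of 7 hypothalamus genes, 6 had a mean under 10 counts, among them Oxt and Avp, and no hypothalamus score was made. The 4 GABAergic genes and the 6 pallial excitatory genes, Rspo2 of the basolateral nuclei among them, all passed the filter. So did every gene of the striatum, thalamus, endothelial, choroid plexus and oligodendrocyte lists. Passing the filter therefore does not show which tissue or cells the reads came from.

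Levels of different members were compared per kilobase of merged exons. Tac2 was the highest, at 17.2 ± 4.75 CPM per kilobase (SD, n = 28), and was above Tac1 in 26 of 28 mice. Tac1 (8.87 ± 3.27) and Dlk1 (8.75 ± 1.98) did not differ beyond their spread, Tac1 being the higher in 12 of 28 mice (permutation test on the paired log2 ratios, p = 0.561). Prkcd followed at 7.13 ± 1.29, Cartpt at 5.94 ± 1.57 and Calcrl at 2.70 ± 0.443. By this length each of these neighbours differed, with Dlk1 above Prkcd in 21 mice, Prkcd above Cartpt in 22 and Cartpt above Calcrl in 28. The adjusted permutation p over the 5 neighbours of the order was 0.0002, 0.0034 and 2.5e-05. With the longest transcript in place of the merged exons, Prkcd was above Dlk1 in 24 of 28 mice (adjusted permutation p = 1.25e-05). The order of Prkcd and Dlk1 thus turned on the length used, which these p-values do not cover. Tac1 and Prkcd were then the neighbours that did not differ (p = 0.711).

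**Figure D1:**
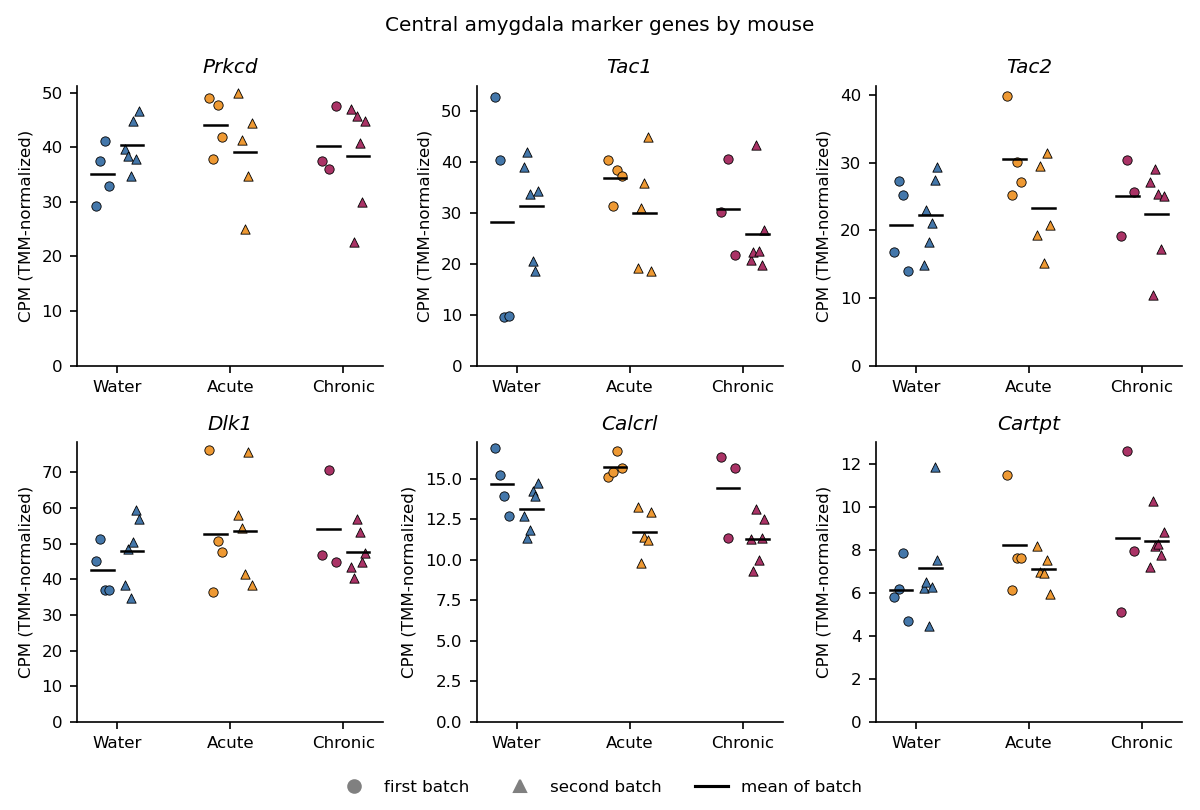
TMM-normalized CPM (vertical axis) of each member in each mouse by drinking group (horizontal axis), with circles for the first batch, triangles for the second and a line at the mean of each batch. The groups overlap for all 6 members, and the Tac1 panel shows 2 Water mice of the first batch at 9.45 and 9.78 CPM, below all other mice.

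The drinking groups overlapped for every member in every comparison, and of all genes 0.0184%, 0.00615% and 0% did not overlap for Acute against Water, Chronic against Water and Chronic against Acute. In the quasi-likelihood test of edgeR, fitted to all 28 mice together with a batch term, none of the 6 members passed an adjusted p of 0.05, adjusted over the 16266 genes, in any comparison. The share of all genes called was 0% for Acute against Water, 0.0184% for Chronic against Water and 0% for Chronic against Acute. The members with an unadjusted p under 0.05 were 0, 1 and 0 in these comparisons, where 9.52%, 10.5% and 4.44% of all genes had one. By an exact permutation test of each member within batches, the adjusted p over 18 tests was between 0.665 and 0.952. Limma-voom also called none. DESeq2 called none of those for which it gave an adjusted p, which left out Cartpt in both comparisons with Water and Calcrl in Chronic against Water mice (unadjusted p = 0.270, 0.0336 and 0.0735). In bulk tissue, fewer cells of a type and less RNA per cell cannot be told apart, in these comparisons and in all that follow.

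Tac2 was measured at 14.0 to 29.3 CPM in Water mice (median 22.0), 15.2 to 39.8 in Acute mice (median 27.1) and 10.5 to 30.3 in Chronic mice (median 25.3). The highest mouse was Acute and the lowest Chronic, and the ranges overlapped over most of their length. The log2 fold change was 0.27 (SE 0.174, edgeR adjusted p = 0.633) in Acute against Water mice, with 7 of 9 Acute mice above the Water mean, and 0.11 (SE 0.175, edgeR adjusted p = 0.878) in Chronic mice. Within the first batch the Acute difference was 0.56, and within the second 0.057. The Chronic difference was 0.27 and 0.0028 within the batches, and ran from 0.041 without Water mouse 43 to 0.20 without Chronic mouse 2 of the second batch.

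Tac1 had the widest range of the members. It was measured at 9.45 to 52.7 CPM in Water mice (median 33.9), 18.6 to 44.9 in Acute mice (median 35.9) and 19.7 to 43.2 in Chronic mice (median 22.4). Both the highest and the lowest mice were Water mice of the first batch, and all Acute and Chronic mice lay between them. The log2 fold change was 0.13 (SE 0.252, edgeR adjusted p = 0.907) in Acute mice and -0.12 (SE 0.253, edgeR adjusted p = 0.906) in Chronic mice. The difference of the mean log2 CPM between Chronic and Water mice was 0.026, of the opposite sign. Leaving out 1 mouse at a time, the Acute value ran from 0.0019 without Water mouse 42 to 0.27 without Water mouse 40. Without Water mice 42 and 43, the lowest in Tac1 and in the striatum genes, the Acute value turned to -0.15 and the Chronic value was -0.37 (edgeR adjusted p = 0.819 and 0.346).

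Cartpt was measured at 4.49 to 11.9 CPM in Water mice (median 6.27), 5.98 to 11.5 in Acute mice (median 7.55) and 5.13 to 12.6 in Chronic mice (median 8.18). In Chronic mice 8 of 9 were above the Water mean, but 1 Water mouse of the second batch, at 11.9 CPM, was above all Chronic mice other than the highest. The log2 fold change in Chronic against Water mice was 0.33 (SE 0.156, 95% interval 0.011 to 0.65), the largest of the 18 differences of members between groups. Its unadjusted p of 0.0432 became an edgeR adjusted p of 0.459, and the exact permutation p was 0.0704. Within the batches the difference was 0.48 and 0.24, and leaving out 1 mouse at a time gave 0.22 to 0.46, with an unadjusted p under 0.05 in 17 of 28 such fits. In Acute mice the log2 fold change was 0.17 (SE 0.157, edgeR adjusted p = 0.744). It was 0.078 without Acute mouse 33 and 0.30 without Water mouse 5 of the second batch, the lowest and highest of the fits without 1 mouse.

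Calcrl, the receptor, was the least variable member. It was measured at 11.3 to 16.9 CPM in Water mice (median 14.0), 9.80 to 16.7 in Acute mice (median 13.2) and 9.31 to 16.3 in Chronic mice (median 11.3). These ranges include a shift between the batches of -0.31 on the log2 scale, which the fit removes. The log2 fold change was -0.15 (SE 0.0791, 95% interval -0.31 to 0.016, edgeR adjusted p = 0.527) in Chronic against Water mice, with 3 of 9 Chronic mice below all Water mice once batch means were removed, and -0.050 (SE 0.0788, edgeR adjusted p = 0.877) in Acute mice. Within the batches the Chronic difference was -0.026 and -0.22. Leaving out 1 mouse at a time, the Acute value ran from -0.085 without Water mouse 43 to -0.016 without Acute mouse 2 of the second batch.

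Prkcd was measured at 29.2 to 46.6 CPM in Water mice (median 38.1), 25.0 to 49.8 in Acute mice (median 41.9) and 22.7 to 47.5 in Chronic mice (median 40.7). The group medians lay close together, and the lowest mice were 1 Acute and 1 Chronic mouse of the second batch. The log2 fold change was 0.11 (SE 0.122, edgeR adjusted p = 0.807) in Acute and 0.031 (SE 0.122, 95% interval -0.22 to 0.28, edgeR adjusted p = 0.954) in Chronic against Water mice. The Acute value was 0.33 within the first batch and -0.047 within the second, and ran from 0.063 without Water mouse 40 to 0.18 without Acute mouse 3 of the second batch. Dlk1 was measured at 34.7 to 59.5 CPM in Water mice (median 46.9), 36.5 to 76.4 in Acute mice (median 50.7) and 40.3 to 70.7 in Chronic mice (median 46.9). The 3 highest mice were Acute mouse 33, Acute mouse 4 of the second batch and Chronic mouse 38. The log2 fold change of Dlk1 was 0.22 (SE 0.135, edgeR adjusted p = 0.621) in Acute and 0.12 (SE 0.135, edgeR adjusted p = 0.790) in Chronic against Water mice. Without Acute mouse 4 of the second batch the Acute value was 0.13, and without Chronic mouse 38 the Chronic value was 0.033, the lowest of the fits without 1 mouse. In Chronic mice it was 0.35 within the first batch and -0.011 within the second.

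In Acute against Water mice the fitted value was above 0 for 5 of 6 members, with a median log2 fold change of 0.15, and for 50.6% of all genes, with a median of 0.0011. Beside this, 4 of 4 GABAergic marker genes were above 0 (median 0.18) and 5 of 6 pallial excitatory marker genes below 0 (median -0.11), with none called. In Chronic against Acute mice, which share the Acute mice with the first comparison, it was above 0 for 1 of 6, with a median of -0.096, and for 49.4% of all genes. In Chronic against Water mice it was above 0 for 4 of 6, with a median of 0.068, and for 51% of all genes. These counts were not tested, since the members vary together between punches. In the first batch all Acute values were above 0, from 0.099 for Calcrl to 0.56 for Tac2. In the second batch 4 of 6 were below 0. The test of this difference between batches, an interaction term in edgeR, called no member in any comparison (0%, 0.00615% and 0% of all genes), and its lowest unadjusted p among the members was 0.103, for Calcrl.

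**Figure D2:**
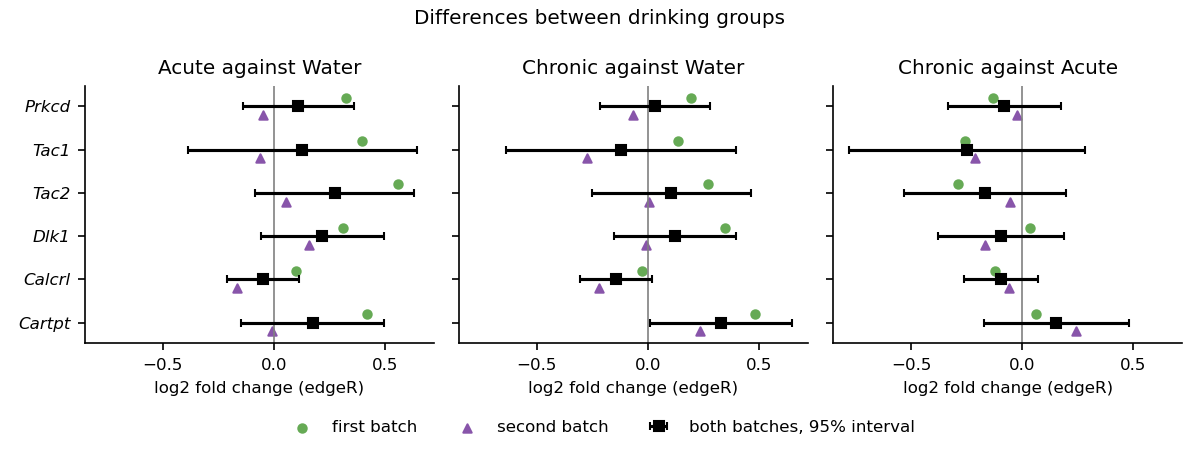
Log2 fold changes from edgeR (horizontal axis) of the 6 members (vertical axis) in the 3 comparisons, with squares and 95% intervals for the fit over both batches, circles for the first batch and triangles for the second. The interval of Cartpt in Chronic against Water mice runs from 0.011 to 0.65 and the other 17 intervals include 0.

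Other genes of the same pathways did not pass the test either. Of 14 ligands and receptors for the members' products, 10 had enough counts, with 5 above and 5 below 0 and a median log2 fold change of 0.016 in Acute mice and 0.00097 in Chronic mice. Ramp1, the partner of Calcrl for calcitonin gene-related peptide, had a value of 0.11 in Acute mice (SE 0.0553, edgeR adjusted p = 0.521), and Notch2, a Notch receptor, -0.18 (SE 0.0963, edgeR adjusted p = 0.564). Tacr3, the neurokinin B receptor, had a value of 0.21 (SE 0.166, edgeR adjusted p = 0.696), and Tacr1, the substance P receptor, 0.15 (SE 0.101, edgeR adjusted p = 0.645). The ligand Calca itself was at 0.864 CPM in Water mice, 0.682 in Acute mice and 0.725 in the Chronic group, near the filter.

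Of the 8 other protein kinase C genes, 2 were above and 6 below 0 in Acute mice, and 3 above and 5 below in Chronic mice, with none called. Prkci, an atypical isoform, had a log2 fold change of -0.078 in Acute mice (SE 0.0341, edgeR adjusted p = 0.493). Of 9 genes for the processing and storage of peptide precursors, 7 were above 0 in Acute mice and 6 in Chronic mice, with none called. Chga, a granin of secretory granules, had a value of 0.16 in Acute mice (SE 0.0422, edgeR adjusted p = 0.327), and Pcsk1n, an inhibitor of a precursor-cleaving enzyme, 0.14 in Acute and 0.18 in Chronic mice (edgeR adjusted p = 0.327 and 0.157). Chga and Pcsk1n were picked by the study from these mice, so their values are no independent evidence.

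A list of 11 other genes of central amygdala neurons (Crh, Crhr1, Ezr, Htr2a, Isl1, Meis2, Nts, Pdyn, Penk, Six3 and Sst) also held no called gene. In Acute mice 9 of 11 were above 0, with a median log2 fold change of 0.23, and in Chronic mice 5 of 11 were, with a median of -0.072. Nts, the neurotensin precursor, had the largest value in Acute mice, 0.55 (SE 0.132, edgeR adjusted p = 0.194), from 21.9 CPM in Water to 32.5 CPM in Acute mice; it too was picked by the study from these mice. Crhr1, a receptor of corticotropin-releasing hormone, had a value of 0.27 in Chronic mice (SE 0.0867, edgeR adjusted p = 0.243).

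The members differed in their spread between mice. Within a group and batch, the SD of log2 CPM was 0.64 for Tac1, 0.43 for Tac2, 0.36 for Cartpt, 0.32 for Dlk1, 0.30 for Prkcd and 0.18 for Calcrl, where the median of all genes was 0.14. Among genes of like mean level (the same decile), Tac1 stood at the 99.4th percentile, Tac2 at the 99.3rd, Dlk1 at the 98.6th, Prkcd at the 97.7th, Cartpt at the 95th and Calcrl at the 79.3rd. After removal of batch means the highest mouse was 5.53 times the lowest for Tac1, 3.34 times for Tac2 and 1.61 times for Calcrl. Counts of 87 or more in every mouse lay behind these values.

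**Figure D3:**
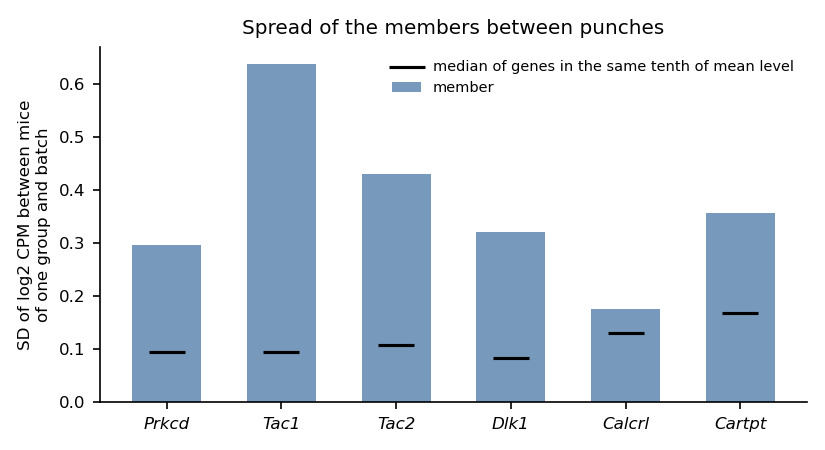
SD of log2 CPM between mice of one group and batch (vertical axis) for each member, as bars, with a dash at the median SD of genes of the same decile of mean level. Tac1 stands at 0.64 against a median of 0.095, and Calcrl at 0.18 against 0.13.

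Covariation between punches was measured over the 28 mice on log2 CPM with batch means removed, and p-values come from 100000 permutations within batches, adjusted over the 15 pairs of members. Of the 15 pairs, 3 passed, all with positive r, and they join 4 members in a chain from Prkcd over Tac2 and Dlk1 to Cartpt. Each of the 3 kept an adjusted p under 0.05 when any 1 mouse was left out. Within single batches, Prkcd and Tac2 passed in both (adjusted p = 0.0340 and 0.0284), Tac2 and Dlk1 in the second but not the first (adjusted p = 0.0284 and 0.0919), and Dlk1 and Cartpt in the first but not the second (adjusted p = 0.0340 and 0.185).

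Prkcd and Tac2, a kinase and a peptide gene, had a Pearson's r of 0.69 and a Spearman's rho of 0.54 (adjusted permutation p = 0.0009 and 0.0211). Within the batches r was 0.76 and 0.67, and it fell to 0.52 without Acute mouse 3 and Chronic mouse 2 of the second batch, the 2 mice with the most distant Prkcd (adjusted p = 0.0351). Those 2 mice were the lowest in Prkcd, at 25.0 and 22.7 CPM, and had 15.2 and 10.5 CPM of Tac2.

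Tac2 and Dlk1 had an r of 0.68 and a rho of 0.73 (adjusted permutation p = 0.0009 and 0.0003), with 0.67 and 0.69 within the batches and 0.67 without the 2 mice most distant in Tac2. Dlk1 and Cartpt had an r of 0.63 and a rho of 0.55 (adjusted permutation p = 0.004 and 0.0211), with 0.77 and 0.48 within the batches and 0.62 without the 2 mice most distant in Dlk1. Removing group means within each batch in place of batch means gave 0.66, 0.67 and 0.64 for the 3 pairs, so the covariation was as large among mice of the same group.

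Calls of 2 further pairs turned on single mice. Tac2 and Cartpt had an r of 0.42 (adjusted permutation p = 0.0816) and a rho of 0.49 (adjusted p = 0.0322), with 0.83 and 0.086 within the batches, of which the first passed (adjusted p = 0.0241). Without Chronic mouse 2 of the second batch, the lowest in Tac2 but ranked 25 of 28 from the bottom in Cartpt, r was 0.65 and passed. Prkcd and Calcrl had an r of 0.46 (adjusted permutation p = 0.0657), which passed without Water mouse 40, or without Acute mouse 2, Chronic mouse 1 or Chronic mouse 4 of the second batch. Tac1 passed with no other member, its r running from -0.047 with Prkcd to 0.41 with Dlk1.

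Single mice ranked alike in several members or apart. Water mouse 43 was among the 5 lowest of 28 in all 6 members once batch means were removed. Acute mouse 33 was the highest in Tac2 and Dlk1, ranked 27 of 28 in Prkcd and 26 in Cartpt, but 13 in Calcrl. Chronic mouse 38 was the highest in Cartpt and the lowest in Calcrl. Acute mouse 4 of the second batch ranked 27 in Tac1, Tac2 and Dlk1, but 6 in Prkcd and 14 in Cartpt.

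**Figure D4:**
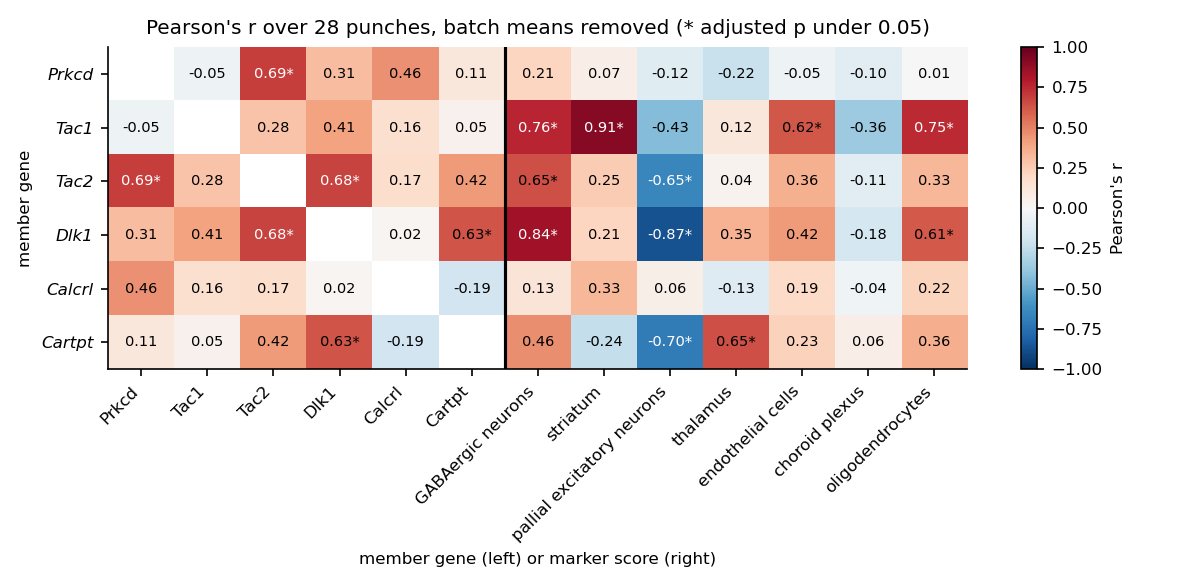
Pearson's r over 28 punches with batch means removed, for each member (rows) against the other members (left of the line) and against 7 marker scores (right of the line), with red above 0, blue below 0 and a star for an adjusted permutation p under 0.05. Stars mark 3 of 15 member pairs and 11 of 42 pairs of a member and a score, and Calcrl has none.

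The members were also set against scores of the tissue a punch could hold, each the mean log2 CPM of a marker list, over 42 pairs of a member and a score. Of these, 11 passed an adjusted permutation p of 0.05: 8 were positive and 3 negative. Taken within each batch alone, 12 passed in the first and 5 in the second. The 5 were Tac1 with the striatum, GABAergic and oligodendrocyte scores and Dlk1 with the GABAergic and pallial scores, so that no relation of Tac2 or Cartpt passed there. With the striatum and pallial scores together as covariates, the log2 fold change in Acute against Water mice was 0.038 for Dlk1, 0.11 for Tac2 and 0.055 for Cartpt, where it was 0.22, 0.27 and 0.17 without them. Prkcd (0.098) and Calcrl (-0.049) stayed near their values of 0.11 and -0.050, and Tac1 was 0.063 in place of 0.13. With the striatum score alone Dlk1, Tac2 and Cartpt were at 0.20, 0.25 and 0.20. In Chronic against Water mice Cartpt was 0.23 with both scores (unadjusted p = 0.0232, edgeR adjusted p = 0.363), and no member was called in any comparison. The other scores were not used as covariates. Dlk1, Tac2 and Cartpt themselves varied with the pallial score (r = -0.87, -0.65 and -0.70), so fitting it also takes out variation of these genes. The part of any score in the differences between drinking groups was not tested.

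Tac1 went with the striatum score, whose genes include Drd1, Drd2, Adora2a, Ppp1r1b, Rgs9, Pde10a and Rarb. The r was 0.91 and the rho 0.86 (adjusted permutation p = 0.00014 and 0.000105, both from the smallest p that 100000 permutations can give), with 0.97 and 0.85 within the batches. Without Water mice 42 and 43, which lay apart in both measures, r was 0.85. Tac1 also went with the GABAergic score (r = 0.76, rho = 0.75) and the oligodendrocyte score (r = 0.75, rho = 0.74), which passed (adjusted permutation p = 0.00021 and 0.000252), and with the endothelial score (r = 0.62, rho = 0.58, adjusted p = 0.00493). The endothelial relation had an r of 0.74 and 0.42 within the batches. It passed in 27 of 28 fits without 1 mouse but not without Water mouse 43 (r = 0.45, adjusted p = 0.0695). Without that mouse and Acute mouse 33 r was 0.44 (adjusted p = 0.0656). With the pallial score Tac1 had an r of -0.43 (adjusted permutation p = 0.101) and a rho of -0.50 that passed (adjusted p = 0.0354). With the choroid plexus score its r was -0.36 (adjusted permutation p = 0.0727). Without Acute mouse 1 and Chronic mouse 6 of the second batch, that r was -0.50 and passed (adjusted p = 0.0110).

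All 8 striatum genes had values below 0 in Chronic against Water mice, with a median log2 fold change of -0.35, and none passed the test. Of all genes, 51% were above 0. The count of striatum genes was not tested, since genes of the same tissue can vary together between punches. The lowest striatum gene was Pde10a, a phosphodiesterase of striatal neurons, at -0.52 (SE 0.219, edgeR adjusted p = 0.383). With the striatum score added to the fit, the Tac1 difference between Chronic and Water mice turned from -0.12 to 0.30 (unadjusted p = 0.00769, edgeR adjusted p = 0.286). With the striatum and pallial scores it was 0.26 (unadjusted p = 0.00707, edgeR adjusted p = 0.250). None of these versions was called.

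Dlk1 had the strongest relation with the pallial excitatory score, whose genes include Slc17a7, Neurod2, Neurod6, Tbr1 and Rspo2. The r was -0.87 and the rho -0.79 (adjusted permutation p = 0.00014 and 0.000105), with -0.89 and -0.85 within the batches and -0.79 without the 2 most distant mice. Against the GABAergic score, whose genes include Gad1, Gad2 and Slc32a1, its r was 0.84 and its rho 0.79, with 0.90 and 0.78 within the batches (adjusted permutation p = 0.00014 for r). Dlk1 also passed with the oligodendrocyte score at an r of 0.61 (adjusted p = 0.00382), but not by rho (0.45, adjusted p = 0.0682), and not without the 2 most distant mice (r = 0.47, adjusted p = 0.0632).

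Tac2 had an r of 0.65 with the GABAergic score and -0.65 with the pallial score (rho 0.63 and -0.71, adjusted permutation p = 0.00114 and 0.00147). Without the 2 mice most distant in each score, these were 0.52 and -0.56 and still passed (adjusted p = 0.0217 and 0.0154). Within the batches they were 0.78 and 0.56 for the GABAergic score, and -0.80 and -0.55 for the pallial score, and in the second batch alone neither passed (adjusted p = 0.107 and 0.116).

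Cartpt had an r of -0.70 with the pallial score (adjusted permutation p = 0.00114), with -0.84 and -0.51 within the batches, but a rho of -0.44 that did not pass (adjusted p = 0.0846). It had an r of 0.65 and a rho of 0.53 with the thalamus score (adjusted permutation p = 0.00224 and 0.0227). Within the batches this r was 0.79 and 0.44. Whether thalamic tissue entered the punches was not tested. Without Chronic mouse 38 and Water mouse 43 the thalamus relation no longer passed (r = 0.47, adjusted p = 0.0632). With the striatum score its r was -0.24 (adjusted permutation p = 0.435) and, without Water mice 42 and 43, -0.50 (adjusted p = 0.0255).

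Prkcd and Calcrl passed with none of the 7 scores. Prkcd had an r of -0.22 with the thalamus score (adjusted permutation p = 0.435), made without Prkcd itself, and 0.24 and -0.61 within the batches. Calcrl had an r of 0.19 with the endothelial score of Cldn5, Pecam1, Flt1, Kdr, Tek, Ly6c1 and Slco1a4 (rho 0.070, adjusted permutation p = 0.497), and 0.23 and 0.16 within the batches. Its level thus did not follow the endothelial genes detectably over these punches. The endothelial sum itself varied little, from 153 to 185 CPM over all mice.

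**Figure D5:**
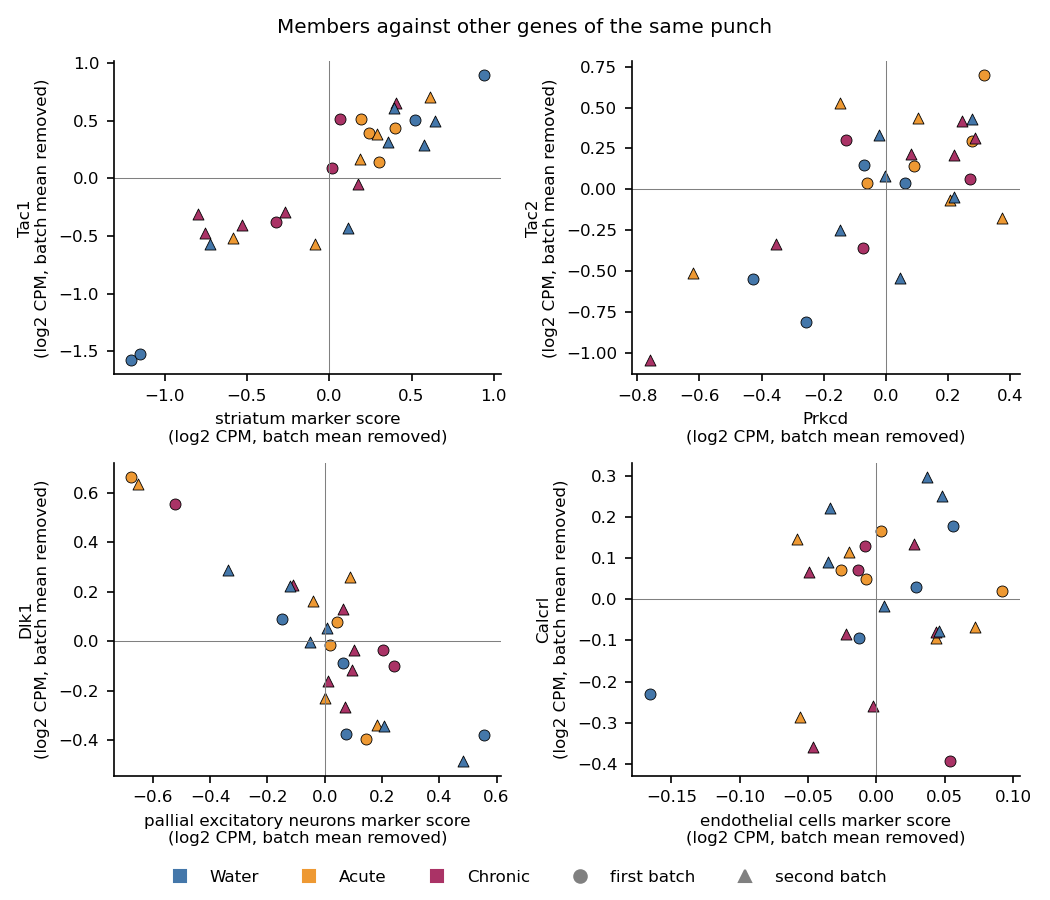
Log2 CPM with batch means removed in the 28 mice, for Tac1 against the striatum score, Tac2 against Prkcd, Dlk1 against the pallial excitatory score and Calcrl against the endothelial score, with colours for the drinking groups, circles for the first batch and triangles for the second. The r values are 0.91, 0.69, -0.87 and 0.19, and 2 Water mice lie apart at the low end of Tac1 and of the striatum score.

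Against the mean of the 11 other central amygdala genes, a score chosen after the data were seen, Tac1 had an r of 0.86, Tac2 0.66 and Dlk1 0.66 (rho 0.88, 0.59 and 0.62, adjusted permutation p over 6 members 6e-05, 0.00072 and 0.00086). Within the batches r was 0.95 and 0.74 for Tac1, 0.66 and 0.68 for Tac2 and 0.74 and 0.58 for Dlk1. Without the 2 mice most distant in the score, Water mouse 43 and Chronic mouse 2 of the second batch, r was 0.87, 0.45 and 0.64, and all 3 still passed. Prkcd (r = 0.34, adjusted permutation p = 0.0978), Calcrl (0.25, adjusted p = 0.251) and Cartpt (0.17, adjusted p = 0.418) did not pass. Prkcd passed when Water mouse 40 or Acute mouse 4 of the second batch was left out. Penk of this list, and other genes of it, are expressed in striatum too.

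The genes nearest to each member were taken as those with the highest r over the 28 mice among the 13070 genes averaging 50 counts or more, as a description. For Tac1 they were Slc35d3 (r = 0.96), Rasgrp2 (0.96) and Penk, the enkephalin precursor (0.95), and the first 10 also held Drd2, the D2 dopamine receptor, and Rgs9. For Dlk1 they were Gabrq (0.95), the theta subunit of the GABA-A receptor, Ahi1 (0.93) and Tcerg1l (0.92), with the GABA-A subunit genes Gabrg1 and Gabre among the first 10. For Tac2 they were Ddc (0.87), which encodes aromatic amino acid decarboxylase, Vat1l (0.84) and Fndc9 (0.84).

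For Prkcd they were Slc4a11 (0.79), Ncdn (0.79) and Vipr2 (0.76), a receptor of vasoactive intestinal peptide. Tac2 was also among the first 10, and Ncdn, Vipr2 and Txndc5 were among the first 10 of both Prkcd and Tac2. For Cartpt they were Gaa (0.86), the lysosomal alpha-glucosidase, Resp18 (0.83) and AW551984 (0.82), the last also among the first 10 of Dlk1. For Calcrl they were Serbp1 (0.82), Gm19410 (0.73) and Flrt2 (0.70), and neither Ramp genes nor endothelial markers were among its first 10. With group means removed as well, 17 of these 18 nearest genes stayed among the first 10 of their member.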

How the data were processed

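Paired-end reads of each mouse were quantified by the authors with Salmon 0.14.1 (FastQC 0.11.8 for read quality, per the submitters' processing notes) against a GRCm38 transcriptome and summarized by gene with tximport. The values used are the whole-number counts per gene that the authors deposited for each batch, without normalization or batch adjustment. Total counts were 20004380 to 22569562 per mouse, which sets the counting error. Groups and batches come from the labels, which number mice separately, and in 55 pairs of libraries of the same group and batch none agreed within sampling noise.

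Tables were joined by gene identifier, and 16266 of 49477 shared genes, those averaging 10 counts or more, were tested by edgeR 4.0.16 (TMM, quasi-likelihood, R 4.3.3), with batch as a covariate, all 28 mice in 1 fit and Benjamini-Hochberg adjustment at 0.05. Log2 CPM used a prior count of 2. Exact tests enumerated 32340 regroupings within batches against Water and 16170 for Chronic against Acute, all 2-sided. Correlations used 100000 permutations within batches. Alternatives used DESeq2 1.42.0, limma 3.58.1 and ComBat-seq (sva 3.50.0), other normalizations and filters, single batches, a replicate block, marker scores as covariates and fits without 1 mouse. The edgeR test and the correlation code were also run on simulated data, whose outcome is not given here. The simulated counts had the same dispersion for every gene, so they do not show the power for these members. Python 3.11.15 was used for correlations.

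The 6 members, the marker lists and the tests were chosen with earlier results of these data known. Every member was named, and from each list the genes with the smallest p against Water, at most 3, apart from some genes of the lists and scores that are not reported here. The 3 nearest genes by r were named per member. The genes named beyond this rule (Tacr3, Calca, Drd2, Rgs9, Gabrg1, Gabre, Txndc5 and the other genes of the first 10), the score of other central amygdala genes, the fit without 2 Water mice and the sequences shown were chosen after values were seen. Replicates are separate mice.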

Additional observations from a re-analysis of the deposited data

Results flagged for a closer look

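In the 9 Acute mice, Cartpt of Acute mouse 33 of the first batch, at 11.5 CPM, stood apart from the others. Its gap to the next mouse was 0.543 of the group's whole range on the log2 scale with batch means removed, above Dixon's critical value of 0.493 for 9 mice. The ends of 18 groups of a member and a drinking condition were examined in this way, 36 in all, and chance alone flags about 1 group in 20. Without this mouse the log2 fold change of Cartpt in Acute against Water mice was 0.078, where it was 0.17 with it, and no member's call in any comparison of drinking groups changed.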

How the results depend on the processing

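The count of members called stayed at 0 in all 3 comparisons of drinking groups under each alternative run, among them DESeq2, limma-voom, ComBat-seq with DESeq2, other normalizations and filters, each batch alone, marker scores as covariates and the 28 fits without 1 mouse. DESeq2 gave no adjusted p for Cartpt in both comparisons with Water and for Calcrl in Chronic against Water mice, nor did ComBat-seq with DESeq2 for Calcrl and Cartpt in Chronic against Water mice, so those members could not be called there. Directions of several uncalled differences turned. In Chronic against Water mice, the Prkcd log2 fold change was -0.0056 with limma-voom, and -0.013 to 0.10 over fits without 1 mouse; it was -0.013 without Chronic mouse 39, -0.0083 without Water mouse 40, and -0.0068 and -0.00061 without Chronic mouse 1 and 3 of the second batch. Tac1 was -0.24 to 0.0073 over these fits, above 0 without Water mouse 40. In the first batch alone, Calcrl in Acute mice was 0.096, Tac1 in Chronic mice 0.13, and Dlk1 in Chronic against Acute mice 0.040. In the second batch alone, Prkcd, Tac1 and Cartpt in Acute mice were -0.046, -0.063 and -0.0075, and Prkcd and Dlk1 in Chronic mice -0.070 and -0.011. With the striatum score as a covariate, Tac1 was 0.30 in Chronic against Water and 0.16 in Chronic against Acute mice; with the pallial score too, these were 0.26 and 0.19, and Dlk1 in Chronic against Acute mice was 0.041. Without Water mice 42 and 43, Tac1 in Acute mice was -0.15. The cause of these turns was not tested. Pairs of a member and a marker score that passed numbered 11 over all mice, 12 in the first batch alone (11 mice), 5 in the second alone (17 mice), and 10 to 12 without 1 mouse. The 10 came without Water mouse 43, and the 12 without Water mouse 40 or 42, or Acute mouse 1 or 3 or Chronic mouse 2 of the second batch. Member pairs that passed numbered 3 over all mice, 3 in the first batch alone, 2 in the second alone and 3 to 4 without 1 mouse, and Prkcd with Tac2 was the pair that passed in both batches. With the longest transcript, 2 members changed place in the order of levels.

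Mice of the second batch carry numbers from 1 within each group. The deviations of 16 same-numbered pairs correlated from -0.35 to 0.34 (median -0.0080), and 1 of 17 mice correlated best with a mouse of its own number, so the numbers were not taken to pair the mice. With the replicate block, which was fitted for the comparisons of drinking groups only, 0 members were called in each. The lowest count of a member in a mouse was 87, and counting error was not separated from the spread between mice. The 95% interval of Tac1 in Chronic against Water mice ran from -0.64 to 0.40.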
